A study of Homo sapiens with 8 samples.

Results

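CD44, CTNND1, ENAH, SCRIB, ARHGEF11, NUMB and SLK are genes whose transcripts carry exons that the epithelial splicing regulators ESRP1 and ESRP2 are known to control. All probes that the platform annotation assigned to one of these 7 symbols were taken, which gave 21 of the 47322 probes on the Illumina BeadChip. RNA of adherent Caco-2 cells, a human colorectal cancer line, was measured in 4 groups with 2 arrays each. ESRP1-overexpressing cells carried an ESRP1 cDNA in the lentiviral vector pLX304 and were set against Empty cells, the empty-vector control. ESRP1-silenced cells carried a hairpin in the lentiviral vector pLKO.1 and were set against Scr cells, which carried a scrambled hairpin. Both ESRP1-silenced arrays came from the hairpin labelled sh4, so effects of that hairpin and of ESRP1 loss cannot be told apart. The ESRP1-overexpressing and Empty arrays shared 1 chip and the ESRP1-silenced and Scr arrays shared the other, so each comparison lay within a chip. The labels do not say whether the 2 arrays of a group came from separate cultures, so p-values cover no more than array-to-array spread, and that spread may be technical.

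ESRP1 is an RNA-binding protein of epithelial cells that binds near alternative exons and steers their inclusion or skipping. Its loss accompanies the switch of many transcripts from epithelial to mesenchymal isoforms, among them the variable exons of the surface receptor CD44 and an epithelial exon of the actin regulator ENAH. An expression probe reads the amount of RNA that holds 1 short stretch of sequence, so it follows a splicing change only where that stretch lies in a regulated exon or in an isoform-specific end. The position of each probe within its transcript was not analysed here. In a population of cells, a change in every cell and a change in some of the cells cannot be told apart.

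The ESRP1 probe followed the labels. Its normalized log2 levels were 9.75 and 9.96 in ESRP1-overexpressing cells, against 8.26 and 7.91 in Empty cells (log2 fold change 1.77, adjusted p = 0.0038 from limma). They were 6.37 and 6.16 in ESRP1-silenced cells, below detection, against 8.03 and 8.32 in Scr cells, which is at least 3.09-fold lower in ESRP1-silenced cells after background correction (adjusted p = 0.047 from limma). Without background correction the log2 fold change was -0.95 (adjusted p = 0.0038 from limma), so the bound rests on that correction, and the signals before normalization were 274.2 and 235.1 in ESRP1-silenced cells against 519.7 and 496.4 in Scr cells. The silencing call did not survive the removal of a single array, whichever it was (adjusted p from 0.071 up to 0.32 in limma), nor the fits with no detection filter (0.14), with only the 4 arrays of the comparison (0.10) or with a replicate block (0.25). The only probe of ESRP2, the paralog of ESRP1, was not detected on any array, which does not show that ESRP2 was absent. Median signals lay between 167.1 and 227.3 and 15153 to 17535 probes were detected per array, with the lower numbers on the chip that held ESRP1-overexpressing and Empty cells. The 7 epithelial markers of Caco-2 cells were all detected, 6 of them on all 8 arrays. COL3A1 and DCN of 6 fibroblast markers, PTPRC and CD3E of 3 leukocyte markers, and VWF and CDH5 of 3 endothelial markers were not detected on any array. The other members of these lists, COL1A1, COL1A2, LUM, PDGFRB, CD79A and PECAM1, were detected on at least 1 array. Of the fibroblast markers, 1 was detected on all 8 arrays.

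A probe counted as detected on an array where its detection p, a rank of its signal among the array's negative controls, was under 0.01. Of the 21 probes, 14, 2 for each of the 7 genes, were detected on at least 2 of the 8 arrays and were tested. Of these, 8 were detected on all 8 arrays and 6 on fewer. The 7 probes left out were not detected on any array: 1 probe each of CD44 (ILMN_1778625), ENAH (ILMN_1727036), SCRIB (ILMN_1695181) and ARHGEF11 (ILMN_1656546), and 3 probes of CTNND1 (ILMN_1651944, ILMN_1663159 and ILMN_1807510). Their signals before normalization lay between 105.2, for the ENAH probe on an Empty array, and 265.9, for the SCRIB probe on an ESRP1-silenced array. For these probes no change was tested, since neither group of a comparison passed the detection threshold. The SCRIB probe came near it on the ESRP1-silenced arrays, with detection p of 0.02857 and 0.01688, against 0.12078 and 0.17273 on the Scr arrays.

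For 4 of these genes the undetected probe was annotated to another transcript than the tested ones. The platform annotation placed the undetected probes of ENAH, SCRIB and ARHGEF11 on transcripts NM_001008493, NM_182706 and NM_198236, and both tested probes of each gene on another transcript (NM_018212, NM_015356 and NM_014784). For CD44 the 3 probes were annotated to 3 transcripts, NM_000610 for the undetected one and NM_001001391 and NM_001001392 for the tested ones. For CTNND1 the 3 undetected probes and the tested probe ILMN_2293511 were all annotated to NM_001331, so the annotated transcript did not separate detected from undetected probes there. All 14 transcripts named in this annotation are listed under the same gene in the RefSeq gene table, among 138 transcripts of these genes. Levels of different probes are not comparable, since each probe binds with its own strength, and they are not set against each other here.

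In ESRP1-overexpressing cells, the level of 1 of these genes changed past the threshold, the polarity scaffold SCRIB, which was 1.57-fold lower than in Empty cells. Between these groups, 1 of the 14 tested probes was called lower and 0 were called higher by limma at an adjusted p under 0.05. Over all 18231 tested probes, 3.36 percent were called lower and 4.06 percent higher, which is 613 and 741 probes. On leaving out 1 array these counts were 162 to 496 lower and 202 to 603 higher. At an unadjusted p under 0.05 there were 4 of the 14, against 25.9 percent of all probes. The arrays of the groups did not overlap for 3 probes that were higher and 3 that were lower in ESRP1-overexpressing cells. Over all probes, this held for 28.8 percent in the higher direction and 28.8 percent in the lower. Among the 3 higher probes was ARHGEF11 ILMN_2347380, which was not detected in either group. That probe and SCRIB ILMN_2324029 remain in these counts and in the median, although no change could be measured for them here. The median log2 fold change of the 14 probes was -0.061, against 0.00043 over all tested probes. Set against these shares, the counts of the 14 probes were close to the background of the whole array.

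In ESRP1-silenced cells no probe of these genes changed past the threshold, and the probe with the lowest adjusted p was one of CD44, with a log2 fold change of 0.45. Against Scr cells, 0 of the 14 probes passed limma's test, and their adjusted p lay between 0.23 and 0.99. Over all probes 0.0329 percent were called higher and 0.0987 percent lower, or 6 and 18 probes, and 0 and 0 on leaving out any array. At an unadjusted p under 0.05 there were 2 of the 14, both of CD44, against 13.5 percent of all probes. The methods' t-test, at the threshold the study used, was passed by 1 of the 14, CD44 ILMN_1803429, before its fold filter and by 0 with it. Arrays did not overlap for 5 probes that were higher and 4 that were lower in ESRP1-silenced cells, against 22.6 and 22.8 percent of all probes. The median log2 fold change of the 14 probes was 0.075, against -0.00015 over all. The difference between the comparisons was called for 0 of the 14 probes by limma, with adjusted p between 0.11 and 0.89, against 3.2 percent called of all probes, or 584. On leaving out 1 array, 70 to 213 of all probes were called higher and 34 to 131 lower in this difference. At an unadjusted p under 0.05 there were 3 of the 14, against 20.6 percent of all.

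The called probe belonged to SCRIB, a scaffold protein that organises the apical and basal sides of epithelial cells. Probe ILMN_1726516 had log2 levels of 10.77 and 10.72 in ESRP1-overexpressing cells, against 11.44 and 11.36 in Empty cells. In ESRP1-silenced cells it had 10.52 and 10.67, against 10.63 and 10.72 in Scr cells. Both ESRP1-overexpressing arrays lay below both Empty arrays. SCRIB fell by 0.65 log2 units in ESRP1-overexpressing cells, a 1.57-fold lower level (standard error 0.11, 95% interval -0.92 to -0.38, adjusted p = 0.022 from limma). The signals before normalization pointed the same way, with 1504.2 and 1381.5 in ESRP1-overexpressing cells against 1756.2 and 1855.7 in Empty cells. The call was lost on leaving out either ESRP1-overexpressing array or either Empty array, with adjusted p of 0.065 to 0.11 from limma and a log2 fold change of -0.69 to -0.62. Between ESRP1-silenced and Scr cells the log2 fold change was -0.08 (95% interval -0.35 to 0.19, adjusted p = 0.81 from limma). The difference between the comparisons was -0.58 (95% interval -0.96 to -0.20, adjusted p = 0.11 from limma).

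The other tested SCRIB probe, ILMN_2324029, was detected on 2 arrays, 1 ESRP1-silenced and 1 Scr array. Its log2 levels were 5.29 and 5.92 in ESRP1-overexpressing cells and 5.58 and 5.85 in Empty cells, all below detection, so that no change could be measured there. They were 6.52 and 6.95 in ESRP1-silenced cells and 6.76 and 6.25 in Scr cells, which overlapped. Both tested SCRIB probes were annotated to the same transcript, and only the bright one carried a measurable level in the comparison that was called.

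ENAH encodes a regulator of actin filament growth at cell edges and contacts. Probe ILMN_1716552 had log2 levels of 8.35 and 8.38 in ESRP1-overexpressing cells, against 7.78 and 7.49 in Empty cells. The ESRP1-overexpressing arrays were higher without overlap, by 0.73 on the log2 scale (standard error 0.22, 95% interval 0.21 to 1.25), which missed the threshold (limma adjusted p = 0.095). The same probe had 8.02 and 7.74 in ESRP1-silenced cells, against 8.36 and 7.77 in Scr cells, which overlapped (log2 fold change -0.19, adjusted p = 0.75 from limma). The second ENAH probe, ILMN_2370296, had 6.21 and 7.32 in ESRP1-overexpressing cells, of which 1 array was detected, against 5.55 and 5.26 in Empty cells, where it was not detected. Its fitted log2 fold change was 1.36 (adjusted p = 0.11 from limma), which gives no lower bound above 1-fold once the Empty value is set at the detection limit. It was 0.61 when no background was subtracted (adjusted p = 0.033 from limma) and 0.62 on the authors' normalized values (adjusted p = 0.044 from limma). This probe had 6.26 and 6.72 in ESRP1-silenced cells, against 6.94 and 6.01 in Scr cells, with 1 array detected in each group. The bright ENAH probe thus had higher values on both ESRP1-overexpressing arrays than on either Empty array. Higher values of the second probe rest on 1 detected array. Neither probe passed the test as fitted. The bright probe was called when only probes detected on all 8 arrays were tested (adjusted p = 0.041 from limma).

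CD44 is a receptor for hyaluronan and a classical example of ESRP-dependent splicing. Probe ILMN_1803429 had log2 levels of 9.96 and 9.95 in ESRP1-silenced cells, against 9.48 and 9.52 in Scr cells. The ESRP1-silenced arrays were higher without overlap (log2 fold change 0.45, standard error 0.13, 95% interval 0.15 to 0.75), and the change did not pass the test (adjusted p = 0.23 from limma). The second probe, ILMN_2348788, had 7.12 and 6.68 in ESRP1-silenced cells, against 6.30 and 6.15 in Scr cells, where it was not detected. With the Scr level set at the detection limit, its mean was at least 1.2-fold higher in ESRP1-silenced cells, a bound without a margin of error. The fitted change did not pass the test (adjusted p = 0.30 from limma). The 2 CD44 probes, annotated to different transcripts, therefore had higher values in ESRP1-silenced than in Scr cells on all arrays. Between ESRP1-overexpressing and Empty cells, ILMN_1803429 had 11.41 and 11.37 against 11.43 and 11.70 (log2 fold change -0.18, adjusted p = 0.43 from limma). ILMN_2348788 had 7.65 and 8.27 in ESRP1-overexpressing cells and 7.97 and 7.96 in Empty cells (log2 fold change -0.01, 95% interval -0.56 to 0.55, adjusted p = 0.99 from limma). The difference between the comparisons was -0.63 for the first probe (adjusted p = 0.11 from limma) and -0.68 for the second (adjusted p = 0.30 from limma).

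Across the 4 groups, the normalized CD44 levels separated by chip. ILMN_1803429 averaged 11.39 ± 0.03 in ESRP1-overexpressing and 11.56 ± 0.19 in Empty cells, and 9.95 ± 0.01 in ESRP1-silenced and 9.50 ± 0.03 in Scr cells (SD, n = 2 arrays each). ILMN_2348788 had the same order, with 7.96 ± 0.44 and 7.97 ± 0.00 on one chip and 6.90 ± 0.31 and 6.22 ± 0.10 on the other. This was not particular to CD44. After normalization, both tested CTNND1 probes were also higher on every ESRP1-overexpressing and Empty array than on any ESRP1-silenced or Scr array. SCRIB ILMN_2324029 separated in the opposite direction, below detection in ESRP1-overexpressing and Empty cells. Before normalization, the signals of both CTNND1 probes and of CD44 ILMN_2348788 overlapped between the chips, so their separation rests on the normalization. Those of CD44 ILMN_1803429 and SCRIB ILMN_2324029 did not overlap. How many of all probes separated by chip was not counted. Chip, vector and infected cell line changed together between these pairs of groups and cannot be told apart, so no test was made across them.

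CTNND1 encodes p120-catenin, which holds cadherins at the cell surface. Its probe ILMN_1696806, detected on all 8 arrays, had log2 levels of 7.33 and 7.33 in ESRP1-silenced cells, against 6.72 and 7.11 in Scr cells (log2 fold change 0.41, 95% interval -0.18 to 1.00, adjusted p = 0.51 from limma). Probe ILMN_2293511 had 6.84 and 5.95 in ESRP1-silenced cells, the lower of them not detected, against 6.86 and 7.0 in Scr cells (log2 fold change -0.54, 95% interval -1.30 to 0.23, adjusted p = 0.51 from limma). The probes thus had fold changes of opposite sign, and neither passed the test. Between ESRP1-overexpressing and Empty cells the arrays overlapped for both probes, with log2 fold changes of -0.19 and -0.26 (limma adjusted p = 0.69 and 0.67). ILMN_1696806 had 7.95 and 7.65 in ESRP1-overexpressing cells and 8.33 and 7.65 in Empty cells, and ILMN_2293511 had 8.01 and 7.85 in ESRP1-overexpressing cells and 8.51 and 7.86 in Empty cells.

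NUMB is an endocytic adaptor that restrains Notch signalling. Probe ILMN_1705114 had log2 levels of 9.98 and 10.04 in ESRP1-overexpressing cells, against 10.50 and 10.27 in Empty cells. These arrays did not overlap, and the log2 fold change of -0.37 (95% interval -0.67 to -0.07) did not pass the test (adjusted p = 0.12 from limma). Probe ILMN_2331266, annotated to another NUMB transcript, had 11.48 and 11.36 in ESRP1-overexpressing cells and 11.58 and 11.46 in Empty cells, with an interval of -0.37 to 0.17 (adjusted p = 0.63 from limma). Probe ILMN_1705114 had 10.06 and 9.97 in ESRP1-silenced cells, against 10.19 and 10.08 in Scr cells, and ILMN_2331266 had 11.65 and 11.61 in ESRP1-silenced cells, against 11.52 and 11.47 in Scr cells. The log2 fold changes were -0.12 and 0.13, with adjusted p of 0.72 and 0.65 from limma. These were among the tightest measurements of the set, with a standard error of 0.13 for the first probe and 0.11 for the second.

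SLK, a kinase that acts on the cytoskeleton, had 2 probes annotated to 1 transcript and both detected on all 8 arrays. Probe ILMN_1700834 had log2 levels of 9.95 and 10.20 in ESRP1-silenced cells, against 10.40 and 10.34 in Scr cells. Probe ILMN_2159322 had 9.52 and 9.99 in ESRP1-silenced cells, against 10.02 and 10.19 in Scr cells. Both probes were lower on both ESRP1-silenced arrays, by log2 fold changes of -0.30 and -0.35, neither past the threshold (limma adjusted p = 0.44 and 0.46). Between ESRP1-overexpressing and Empty cells they were -0.02 (95% interval -0.38 to 0.33) and 0.13 (95% interval -0.31 to 0.57).

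ARHGEF11 encodes an exchange factor that activates the small GTPase RhoA. Probe ILMN_1733861 had log2 levels of 7.81 and 7.43 in ESRP1-overexpressing cells, against 7.54 and 6.61 in Empty cells, where 1 array was not detected. Probe ILMN_2347380 was not detected in either of these groups, with 6.19 and 6.95 in ESRP1-overexpressing cells and 6.09 and 5.95 in Empty cells. The log2 fold change of ILMN_1733861 was 0.54 (limma adjusted p = 0.31), and no change could be measured for ILMN_2347380. On the other chip both probes were detected on all 4 arrays. ILMN_1733861 had 7.72 and 7.52 in ESRP1-silenced cells, against 7.49 and 7.24 in Scr cells (log2 fold change 0.26, 95% interval -0.46 to 0.98, adjusted p = 0.75 from limma). ILMN_2347380 had 7.74 and 7.41 in ESRP1-silenced cells, against 7.46 and 6.85 in Scr cells (log2 fold change 0.42, 95% interval -0.29 to 1.13, adjusted p = 0.58 from limma).

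Probes that were not detected on every array gave less precise values. The median gap between the 2 arrays of a group was 0.10 to 0.19 on the log2 scale for the 8 probes detected on all arrays, and 0.28 to 0.63 for the other 6. The median standard error of a log2 fold change was 0.14 for those 8 probes, 0.30 for the other 6 and 0.16 over all tested probes.

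Whether separate probes of a gene changed unequally was asked by taking, on each array, the log2 difference of its 2 tested probes, lower probe number minus higher, and comparing that difference between groups. The same was done for all 4371 pairs of tested probes in 2814 genes. None of the 7 pairs of these genes was called by limma, 0 between ESRP1-overexpressing and Empty cells, 0 between ESRP1-silenced and Scr cells and 0 for the difference of the comparisons. For SCRIB and ARHGEF11, 1 probe of the pair was below detection on all ESRP1-overexpressing and Empty arrays, so for these genes the first and the last of these comparisons could not show an unequal change. Of all pairs 0.0686 percent, 0 percent and 0.0229 percent were called, in the same order. At an unadjusted p under 0.05 there were 0, 1 and 0 of 7, against 12.6, 6.75 and 8.1 percent of all pairs. Arrays did not overlap for 3 of the 7 pairs between ESRP1-overexpressing and Empty cells, those of ENAH, NUMB and SCRIB, the last against a probe below detection, and for 2 between ESRP1-silenced and Scr cells, those of CTNND1 and NUMB, against 44.3 and 38.7 percent of all pairs.

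The 1 pair with an unadjusted p under 0.05 was that of CTNND1. The difference ILMN_1696806 minus ILMN_2293511 was 0.49 and 1.38 on the ESRP1-silenced arrays, against -0.14 and 0.11 on the Scr arrays. Both ESRP1-silenced arrays lay above both Scr arrays. The unequal change was 0.95 on the log2 scale (standard error 0.29, 95% interval 0.28 to 1.62, adjusted p = 0.71 from limma), and the larger of the ESRP1-silenced values came from the array on which ILMN_2293511 was not detected. Between ESRP1-overexpressing and Empty cells the same difference was -0.05 and -0.20 against -0.19 and -0.21, an unequal change of 0.07 (95% interval -0.60 to 0.74).

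NUMB had the narrowest interval of the 7 pairs. The difference ILMN_1705114 minus ILMN_2331266 was -1.50 and -1.31 in ESRP1-overexpressing cells against -1.09 and -1.18 in Empty cells, an unequal change of -0.27 (95% interval -0.65 to 0.11, adjusted p = 0.56 from limma). It was -1.59 and -1.64 in ESRP1-silenced cells against -1.33 and -1.40 in Scr cells, an unequal change of -0.25 (95% interval -0.63 to 0.13, adjusted p = 0.79 from limma). The NUMB difference was thus lower with ESRP1 raised and with ESRP1 reduced, without overlap in either comparison and without passing the test in either.

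For CD44 the unequal change was -0.17 between ESRP1-overexpressing and Empty cells (95% interval -0.80 to 0.47) and -0.22 between ESRP1-silenced and Scr cells (95% interval -0.86 to 0.41). For SLK it was -0.15 (95% interval -0.68 to 0.38) and 0.05 (95% interval -0.48 to 0.58) in the same comparisons. The pairs of ENAH, SCRIB and ARHGEF11 each held a probe that was detected on 4 arrays or fewer. Between ESRP1-overexpressing and Empty cells the unequal change of ENAH was -0.63 (95% interval -1.53 to 0.27), with its dimmer probe detected on 1 of these 4 arrays, and those of SCRIB and ARHGEF11 are not given. Between ESRP1-silenced and Scr cells the unequal changes were -0.21 for ENAH, -0.31 for SCRIB and -0.16 for ARHGEF11, with adjusted p of 0.94, 0.87 and 0.96 from limma.

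Further genes with ESRP-controlled exons were taken from a list written from general knowledge, with earlier results of these data known. Of its 11 genes, 10 had a probe, and 12 of their 19 probes in 8 genes were tested. None of the 12 was called by limma in either comparison, with 3 at an unadjusted p under 0.05 between ESRP1-overexpressing and Empty cells and 4 between ESRP1-silenced and Scr cells, against 25.9 and 13.5 percent of all probes. Of all probes 4.06 percent were called higher and 3.36 percent lower in the first comparison, and 0.0329 and 0.0987 percent in the second. The median log2 fold changes were -0.031 and -0.029, and none of the 4 pairs of probes was called. EPB41L5, a FERM domain protein of the cell cortex, had the largest value between ESRP1-silenced and Scr cells. Its probe ILMN_2043306 had log2 levels of 8.77 and 9.02 in ESRP1-silenced cells, against 7.93 and 7.99 in Scr cells (log2 fold change 0.94, adjusted p = 0.13 from limma). Its other probe ILMN_1770245 had 9.99 and 9.87, against 9.12 and 9.09 in Scr cells (log2 fold change 0.83, adjusted p = 0.12 from limma). Neither passed the test as fitted. Both were called without background correction (adjusted p = 0.022 and 0.018 from limma), on the authors' values (0.027 and 0.022) and with a trended prior (0.039 and 0.0074), and ILMN_1770245 also where detection on all 8 arrays was asked for (0.027). Between ESRP1-overexpressing and Empty cells the log2 fold changes were 0.56 and 0.31 (adjusted p = 0.10 and 0.23 from limma).

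The small GTPase RAC1 had 10.34 and 10.55 in ESRP1-silenced cells against 11.12 and 11.14 in Scr cells on probe ILMN_1652445 (log2 fold change -0.69, adjusted p = 0.21 from limma). On its second probe, ILMN_2359789, annotated to another RAC1 transcript, the change was -0.11 (limma adjusted p = 0.74). Of the alternatives, only the trended prior called ILMN_1652445 (adjusted p = 0.015 from limma). The lipid-binding protein OSBPL3 had the largest value between ESRP1-overexpressing and Empty cells, 0.58 on probe ILMN_2328378 (adjusted p = 0.13 from limma). It had 0.08 on probe ILMN_1735798, annotated to another OSBPL3 transcript. The trended prior alone called ILMN_2328378 (adjusted p = 0.034 from limma). FGFR2, a growth factor receptor with epithelial and mesenchymal isoforms, had 1 tested probe, ILMN_1682270, detected on 3 arrays. It had 7.46 and 7.48 in ESRP1-silenced cells against 7.04 and 6.57 in Scr cells (log2 fold change 0.66, adjusted p = 0.26 from limma). It was not detected on any ESRP1-overexpressing or Empty array, so no change could be measured there.

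A last list, written in the same way, held binding partners and paralogs of the 7 genes, with ESRP1 and ESRP2. Of its 21 genes, 20 had a tested probe, and of the 26 tested probes 3 were called higher, 1 of them that of ESRP1 itself, and 2 lower between ESRP1-overexpressing and Empty cells, against 4.06 and 3.36 percent of all probes. There were 0 higher and 1 lower, that of ESRP1, between ESRP1-silenced and Scr cells, against 0.0329 and 0.0987 percent of all probes. The median log2 fold changes were 0.091 and -0.12, and 0 of 7 pairs of probes was called. EVL, an actin regulator of the same family as ENAH, had log2 levels of 8.17 and 7.77 in ESRP1-overexpressing cells, against 10.34 and 10.04 in Empty cells on probe ILMN_1730622. EVL fell by 2.22 log2 units in ESRP1-overexpressing cells (limma adjusted p = 0.0022). It had 9.39 and 9.56 in ESRP1-silenced cells, against 8.46 and 8.75 in Scr cells (log2 fold change 0.87, adjusted p = 0.16 from limma). This value was called without background correction (0.67, adjusted p = 0.032 from limma), on the authors' values (adjusted p = 0.041 from limma), with detection on all 8 arrays (adjusted p = 0.045 from limma) and with a trended prior (adjusted p = 0.015 from limma). The difference between the comparisons was -3.09 (adjusted p = 0.0055 from limma). The ENAH probe ILMN_1716552 had a log2 fold change of 0.73 in the first of these comparisons and -0.19 in the second.

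Among polarity proteins that work with SCRIB, LLGL2 had 7.78 and 7.79 in ESRP1-overexpressing cells against 8.38 and 8.56 in Empty cells (probe ILMN_2413615, log2 fold change -0.68, adjusted p = 0.021 from limma). DLG1 had 7.09 and 7.19 in ESRP1-overexpressing cells against 6.48 and 6.50 in Empty cells, where it was not detected. It was at least 1.1-fold higher, a bound without a margin of error (probe ILMN_1701958, adjusted p = 0.048 from limma for the fitted change). STK10, the paralog of SLK, had 7.06 and 7.53 in ESRP1-overexpressing cells, with 1 array detected, against 6.19 and 6.34 in Empty cells, where it was not detected. With the Empty level set at the detection limit, the STK10 mean was 1.23-fold higher. That is no lower bound, since 1 ESRP1-overexpressing array was itself not detected. The fitted change was called (probe ILMN_1651692, adjusted p = 0.034 from limma). Leaving out either ESRP1-overexpressing array or either Empty array ended the calls of DLG1 and STK10, with adjusted p up to 0.18 for DLG1 and 0.13 for STK10 from limma. Leaving out either Scr array also ended that of DLG1 and either ESRP1-silenced array that of STK10. The LLGL2 call was lost without either ESRP1-overexpressing array or without Empty replicate 2, with adjusted p up to 0.11 from limma. The calls of all 3 were also lost with no detection filter and with only the 4 arrays of the comparison, that of LLGL2 with a replicate block (0.066), that of STK10 with each chip normalized separately (0.06) and that of DLG1 in each other fit that gave a value, except those without an ESRP1-silenced array.

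Unequal change of probes within a gene was called for 3 pairs of other genes between ESRP1-overexpressing and Empty cells. The pairs belonged to LYZ (log2 fold changes 3.99 and 0.80, adjusted p = 0.0026 from limma), GSTA1 (0.48 and 2.94, adjusted p = 0.0076 from limma) and KYNU (3.51 and 1.48, adjusted p = 0.0076 from limma). The LYZ pair was also called for the difference of the comparisons (3.36, adjusted p = 0.02 from limma). LYZ encodes lysozyme, GSTA1 a glutathione transferase and KYNU an enzyme of tryptophan breakdown. The unequal changes of these pairs were 3.18, -2.46 and 2.03 on the log2 scale, against -0.27 to 0.07 for the pairs of CD44, CTNND1, NUMB and SLK. That of ENAH was -0.63 and rests on a probe not detected in Empty cells. The pairs of LYZ, GSTA1 and KYNU were named because they were called, so their changes are large by selection.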

How the data were processed

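Per probe and array, the authors deposited a mean signal as an intensity that was not normalized, beside a detection p-value. Of the detection cells, 88 held a comma and were taken as 1. A further table of intensities, deposited after normalization by the authors on the linear scale, had a median of 192.3 on every array. The sources used here do not name the software. With limma version 3.58.1 (R version 4.3.3), neqc estimated background from detection p, added an offset of 16, quantile-normalized all arrays and returned log2 values. The tested probes reached a detection p under 0.01 on 2 or more of the 8 arrays. In the platform annotation, 30113 probes carried 1 symbol, 8 carried several and 17201 carried none, and symbols were updated through the RefSeq gene table.

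A single limma fit of the 4 groups used all 8 arrays (4 residual degrees of freedom, 2.8 prior). Tests were two-sided, with Benjamini-Hochberg adjustment over all tested probes or over all 4371 pairs. Where neither array of a group detected a probe, its level there was set per array at the higher of its own value and the lowest detected value. This gives a bound where both arrays of the other group detected the probe. An exact permutation test of 2 against 2 arrays cannot go below p = 0.333 and was not used. The 7 genes and all lists were chosen with earlier results of these data known. Named were every probe and pair of the 7 genes, the called genes of the other lists or, where none was called, the 2 with the largest change, FGFR2 and ESRP1. LYZ, GSTA1, KYNU and the second probes of EPB41L5, RAC1 and OSBPL3 were named after their values were seen.

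As alternatives, the signals were quantile-normalized with no background step, or replaced by the authors' values, or corrected chip by chip. The detection filter was dropped or extended to all 8 arrays. The fit was limited to the 4 arrays of a comparison, given a replicate block, repeated with 1 array left out, or given a trended, robust prior. Pairs were also tested with limma's diffSplice and with both probes detected on 4 arrays. The methods' t-test asked for p under 0.01 and a fold over 1.5. The procedure was tested on simulated data, and the number of arrays limits the precision. At a simulated log2 change of 0.585, 2 and 3 of 50 changed probes were recovered in the 2 comparisons, and 11 of 83 and 7 of 67 pairs. At a log2 change of 1 these were 35 and 27 of 50 probes, and 47 of 79 and 34 of 69 pairs. A probe or pair that was not called may therefore still have changed by such amounts.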

Additional observations from a re-analysis of the deposited data

Results flagged for a closer look

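Among the ESRP target genes and the genes of the further lists, ESRP1 and EVL responded differently in the 2 comparisons, by limma's test of the difference between them. For ESRP1 the difference of the log2 fold changes, ESRP1-overexpressing against Empty minus ESRP1-silenced against Scr, was 3.68 (adjusted p = 0.0019 from limma), as the labels of the 4 groups imply. For EVL it was -3.09 (adjusted p = 0.0055 from limma), with lower values on 2 of 2 ESRP1-overexpressing arrays than on either Empty array and higher values on 2 of 2 ESRP1-silenced arrays than on either Scr array. None of the 14 probes of the 7 ESRP target genes passed that test.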

How the results depend on the processing

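The number of ESRP target probes called between ESRP1-overexpressing and Empty cells was 1, and became 2 with quantile normalization alone, with the authors' values, with detection on all 8 arrays and with a trended and robust variance prior, which each added an ENAH probe to SCRIB. It became 0 with no detection filter, with only the 4 arrays of the comparison, with the replicate number as a block and with the methods' t-test after Benjamini-Hochberg adjustment, and was 0 to 1 on leaving out an array. In these fits the log2 fold change of SCRIB ILMN_1726516 is -0.65 by construction, and its adjusted p was 0.086 (no filter), 0.081 (4 arrays) and 0.063 (replicate block) from limma. Leaving out an array gave -0.69 to -0.62. The methods' t-test after Benjamini-Hochberg adjustment was passed by 0 of all probes in this comparison, so it cannot tell SCRIB from any other probe. Without that adjustment, the methods' t-test and fold filter were passed by 452 of all probes. Of the 14 probes, 1 was among them, SCRIB ILMN_1726516. The replicate numbers pair no samples by the labels, and same-numbered arrays deviated together with a correlation of 0.02 and 0.06. The block cut the calls over all probes between ESRP1-overexpressing and Empty cells to 303 higher and 238 lower, against 741 and 613 without it. Between ESRP1-silenced and Scr cells 0 of the 14 probes were called under every alternative, against 6 probes higher and 18 lower of all, which became 113 and 134 without background correction, 0 and 0 with the block, and 253 and 296 with the trended prior. For the difference of the comparisons that prior called 2 probes, CD44 ILMN_1803429 (adjusted p = 0.029 from limma) and SCRIB ILMN_1726516 (adjusted p = 0.031 from limma), in place of 0. With only the 4 arrays of the comparison, EVL and ESRP1 between ESRP1-overexpressing and Empty cells had adjusted p of 0.051 and 0.057 from limma. None of the 7 probe pairs was called under any alternative. Over all pairs 3 were called between ESRP1-overexpressing and Empty cells, 38 without background correction, 37 with the authors' values and 0 with the block.

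Some uncalled values changed sign, and none of these was called. Without background correction CD44 ILMN_2348788 became 0.00 between ESRP1-overexpressing and Empty cells, the ARHGEF11 pair 0.04, and the CD44 pair 0.10 between ESRP1-silenced and Scr cells. With the authors' values these were 0.00, 0.06 and 0.09, and ENAH ILMN_2370296 became 0.00 between ESRP1-silenced and Scr cells. With each chip normalized separately the ARHGEF11 pair became 0.00. In ESRP1-overexpressing and Empty cells that pair, and SCRIB ILMN_2324029, rest on a probe below detection. On leaving out an array, values between ESRP1-overexpressing and Empty cells were -0.32 to 0.30 for CD44 ILMN_2348788, -0.43 to 0.21 for SCRIB ILMN_2324029, -0.16 to 0.11 for SLK ILMN_1700834, -0.01 to 0.27 for SLK ILMN_2159322, -0.53 to 0.15 for CTNND1 ILMN_1696806, -0.58 to 0.07 for CTNND1 ILMN_2293511 and -0.06 to 0.21 for OSBPL3 ILMN_1735798. For the pairs they were 0.00 to 0.14 (CTNND1), -0.50 to 0.17 (CD44), -0.59 to 0.57 (ARHGEF11) and -0.43 to 0.12 (SLK). Between ESRP1-silenced and Scr cells they were -0.45 to 0.47 for ENAH ILMN_2370296, -0.48 to 0.10 for ENAH ILMN_1716552 and -0.02 to 0.43 for SCRIB ILMN_2324029, and for the pairs -0.42 to 0.01 (CD44), -0.06 to 0.17 (SLK), -0.57 to 0.16 (ENAH) and -0.33 to 0.02 (ARHGEF11). The cause was not tested.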
